A study of Mus musculus with 24 samples.

Results

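The 10 genes described here form the core of the mammalian circadian clock and were taken by symbol from a deposited table of 24043 genes: Arntl (also called Bmal1), Clock, Per1, Per2, Per3, Cry1, Cry2, Nr1d1, Nr1d2 and Dbp. Each of the 10 has a row in the table. They were measured by RNA-seq in C2C12, an established line of mouse myoblasts that fuses into myotubes when serum is withdrawn. Growth medium was DMEM with 10% fetal bovine serum, and cells in it were kept below confluence. Differentiation medium was DMEM with 2% horse serum and an insulin, transferrin and selenium supplement, renewed on several days. Each medium was used at 21% oxygen (normoxia) and at 2% oxygen (hypoxia), and each of the 4 groups had 2 biological replicates, called A and B in the labels. All groups came from this single line. Neither the hour of harvest, the hours since the last change of medium nor the total days in differentiation medium are given in the sources used here. The phase of any rhythm in each library is therefore unknown, and a shift in phase and a change in mean level cannot be told apart.

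The clock is a feedback loop of transcription. The proteins of Arntl and Clock form a heterodimer that binds E-box sequences and activates the Per and Cry genes, whose products return to the nucleus and inhibit the heterodimer. The same heterodimer activates Nr1d1 and Nr1d2, which encode the REV-ERB receptors that repress Arntl, and Dbp, an activator that binds D-box sequences in many output genes. Cultured fibroblasts and myoblasts hold such clocks in each cell, and a change of serum can align them. In skeletal muscle the clock is known for its links to metabolism and to MyoD, the master factor of the muscle lineage.

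Values are FPKM, fragments per kilobase of transcript scaled to the mapped fragments of the library, so they are corrected for transcript length and can be compared between genes. All 10 genes passed the filter on low values, which kept the 12389 genes whose mean reached 1 FPKM in some group. The 8 libraries had 14917 to 15672 genes above 0. Their depth relative to hypoxic differentiation replicate A, which was set to 1, ran from 0.633 to 1. It was read from the most frequent ratio between the low values of the same genes in 2 libraries, while the absolute depth cannot be read from FPKM. Replicates differed by a median of 0.07 to 0.20 on the log2 scale over all tested genes. The hypoxic differentiation pair stood apart: 613 genes differed there more than 2-fold between replicates, against 56 to 71 in the other groups. Of the 5 myoblast markers (Myod1, Myf5, Des, Cdh15 and Itga7) all were above 1 FPKM in every library, with a summed level of 485.4 to 582.4 FPKM in normoxic and 132.2 to 140.4 FPKM in hypoxic growth medium. The 5 myotube markers summed to 7004 and 7014 FPKM in normoxic differentiation medium but to 8.66 and 15.3 FPKM in its hypoxic counterpart. Summed markers of adipocytes, macrophages, endothelium and neurons reached at most 1.18 FPKM in any library, and of the fibroblast markers Thy1 was at 0 in 7 libraries and at 0.031 FPKM in the other, while Pdgfra and Dpt were detected in every library.

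Changes are given on the log2(FPKM + 1) scale, with a standard error, from limma fitted over all tested genes with Benjamini-Hochberg adjusted p-values, and a gene is called at an adjusted p under 0.05. Folds are ratios of mean FPKM. The median change of all tested genes was -0.20 for differentiation medium in normoxia, 0.07 in hypoxia, -0.14 for low oxygen in growth medium, 0.15 for low oxygen with differentiation medium, and, in the interaction, 0.27. After median-of-ratios scaling these medians were 0.02, 0.02, -0.03, -0.01 and -0.01, so a small change is best read against that shift. With that scaling the share of tested genes called higher and lower became 34.7% and 30.6%, 20.9% and 19.1%, 17.7% and 21.5%, 30.8% and 34.4%, and 23.8% and 26.6% in the same order. With upper-quartile scaling the 2 shares for differentiation medium in hypoxia became 17.9% and 22.4%, and those for hypoxia in growth medium 19.8% and 20.0%.

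Reference sequence shows which of the genes carry the elements named above close to their start. The 250 bases before each annotated start were searched in RefSeq promoter windows of build GRCm38.p6, which is not the mm9 build named in the submitters' processing notes. Of the 10 genes, 9 have a window there, and Per2, which has none, was not searched. The E-box CACGTG, read alike on both strands, occurs in 6.0% of the 32851 windows in the table, and the D-boxes TTATGTAA and TTATGCAA, on either strand, occur, either of them, in 1.5%. Among the clock genes, Per1 and Cry1 hold an E-box and Per1 and Per3 hold a D-box. The 3 windows are printed with that of Ciart, another E-box repressor of the clock described further on, because it holds 3 E-boxes. They lie at chr11:69098699-69098948 (Per1, first of its 2 windows, plus strand), chr4:151044666-151044915 (Per3, minus strand), chr10:85185055-85185304 (Cry1, minus strand) and chr3:95882229-95882478 (Ciart, minus strand). Capitals mark E-boxes and D-boxes, and each sequence is written 5′ to 3′ on the gene's strand.
Per1: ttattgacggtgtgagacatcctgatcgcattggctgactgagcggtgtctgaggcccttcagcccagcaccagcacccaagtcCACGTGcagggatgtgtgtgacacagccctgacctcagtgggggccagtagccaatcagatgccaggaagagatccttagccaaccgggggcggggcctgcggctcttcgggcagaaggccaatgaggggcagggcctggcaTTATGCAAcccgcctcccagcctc
Per3: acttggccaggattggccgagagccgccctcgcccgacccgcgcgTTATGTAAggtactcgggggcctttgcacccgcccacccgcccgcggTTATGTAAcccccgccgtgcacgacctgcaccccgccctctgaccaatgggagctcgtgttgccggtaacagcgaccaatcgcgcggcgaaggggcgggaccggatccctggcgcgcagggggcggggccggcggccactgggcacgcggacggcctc
Cry1: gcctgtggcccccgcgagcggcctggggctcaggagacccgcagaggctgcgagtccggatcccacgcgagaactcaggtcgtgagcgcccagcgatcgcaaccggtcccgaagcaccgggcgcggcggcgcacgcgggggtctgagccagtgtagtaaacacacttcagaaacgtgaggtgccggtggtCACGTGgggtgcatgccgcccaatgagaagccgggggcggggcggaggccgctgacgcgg
Ciart: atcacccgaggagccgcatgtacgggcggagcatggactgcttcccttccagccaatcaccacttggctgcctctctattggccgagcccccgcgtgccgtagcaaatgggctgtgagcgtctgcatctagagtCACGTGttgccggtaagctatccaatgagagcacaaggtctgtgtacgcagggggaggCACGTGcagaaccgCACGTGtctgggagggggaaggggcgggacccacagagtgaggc
The Per1 E-box begins 166 bases and its D-box 24 bases before the start. The D-boxes of Per3 begin 205 and 158 bases before the start, the E-box of Cry1 60 bases, and the E-boxes of Ciart 116, 58 and 44 bases. The variant AACGTG, on either strand, is in 3.8% of all windows and in those of Cry1, Cry2 and Nr1d1. The half-site AGGTCA of ROR and REV-ERB receptors is in 14.0% of all windows and, on either strand, in the first Per1 window, 1 of 3 Clock windows and that of Nr1d2. The short core ACGTG or GCGTG of hypoxia response elements, on either strand, is in 38.6% of all windows and in 10 of the 13 windows of the clock genes, where it lies within an E-box or the AACGTG variant in part. These matches describe letters only, and in windows without one nothing follows about the factor.

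Of the activators, Arntl had the narrowest range of all 10 genes. It was at 7.71 and 8.27 FPKM (replicates A and B) in normoxic growth medium, 11.6 and 11.7 in normoxic differentiation cultures, 9.29 and 10.3 in hypoxic growth medium, and 7.20 and 9.18 in hypoxic differentiation medium. Clock was at 5.21 and 7.22, 9.90 and 10.1, 6.83 and 6.09, and 6.33 and 7.73 FPKM in the same order. For both genes the 2 libraries of normoxic differentiation medium were the highest of the 8. The highest group mean was 1.46-fold the lowest for Arntl and 1.61-fold for Clock.

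The 3 Period genes did not share a pattern. Per1, the most abundant of them, was at 11.7 and 10.7 FPKM in normoxic growth medium, 14.7 and 11.9 in normoxic differentiation cultures, 15.9 and 17.4 in hypoxic growth medium, and 12.3 and 9.73 in hypoxic differentiation medium. Per2 was at 3.96 and 4.04, 5.13 and 5.01, 10.4 and 11.2, and 3.42 and 3.00 FPKM, so that hypoxic growth medium stood clear of the other 3 groups. Per3 was at 7.25 and 8.10, 2.51 and 2.03, 12.4 and 13.3, and 8.44 and 6.38 FPKM. Its lowest libraries were the normoxic differentiation pair, where Per1 and Per2 were not at their lowest.

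The cryptochromes, the direct inhibitors of the heterodimer, were highest in normoxic differentiation medium. Cry1 was at 7.54 and 6.92 FPKM there and between 3.63 and 4.24 FPKM in the other 6 libraries (4.08 and 4.07 in normoxic growth medium, 3.84 and 4.14 in hypoxic growth medium, 3.63 and 4.24 in hypoxic differentiation medium). Cry2 was at 5.81 and 6.03 FPKM in normoxic growth medium, 16.5 and 15.4 in normoxic differentiation cultures, 5.55 and 7.46 in hypoxic growth medium, and 2.83 and 3.73 in hypoxic differentiation medium. Within a library the Cry2 level was 2.19 and 2.23 times that of Cry1 in normoxic differentiation medium and 0.781 and 0.880 times in hypoxic differentiation medium, so the order of the pair differed between these groups.

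Of the REV-ERB genes, Nr1d1 was the more variable. It was at 11.4 and 9.57 FPKM in normoxic growth medium, 11.4 and 11.8 in normoxic differentiation cultures, 24.3 and 25.0 in hypoxic growth medium, and 41.8 and 53.2 in its differentiation counterpart. Thus all 4 hypoxic libraries were above all 4 normoxic ones. Nr1d2 was at 8.56 and 11.1, 10.3 and 10.6, 15.6 and 13.6, and 13.3 and 11.0 FPKM, and both hypoxic growth medium libraries were above the other 6. Its hypoxic differentiation libraries were above the normoxic ones of that medium, and both of these groups overlapped normoxic growth medium. The ratio of Nr1d1 to Nr1d2 was 0.865 to 1.33 in the 4 normoxic libraries, 1.56 and 1.84 in hypoxic growth medium and 3.14 and 4.84 in hypoxic differentiation medium.

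Dbp had the widest range of the 10 genes. It was at 14.8 and 11.6 FPKM in normoxic growth medium, 3.86 and 3.45 in normoxic differentiation cultures, 33.6 and 37.3 in hypoxic growth medium, and 37.0 and 18.3 in hypoxic differentiation medium. Its highest group mean was 9.71-fold its lowest. The range of its group means on the log2 scale, 2.97, was wider than that of 94.2% of all tested genes. By the same measure Per3 (86.1%), Nr1d1 (86.1%), Cry2 (84.6%) and Per2 (72.5%) were also in the upper part, and Arntl (14.7%), Nr1d2 (17.0%), Per1 (18.7%), Clock (22.6%) and Cry1 (32.2%) in the lower part.

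**Figure D1:**
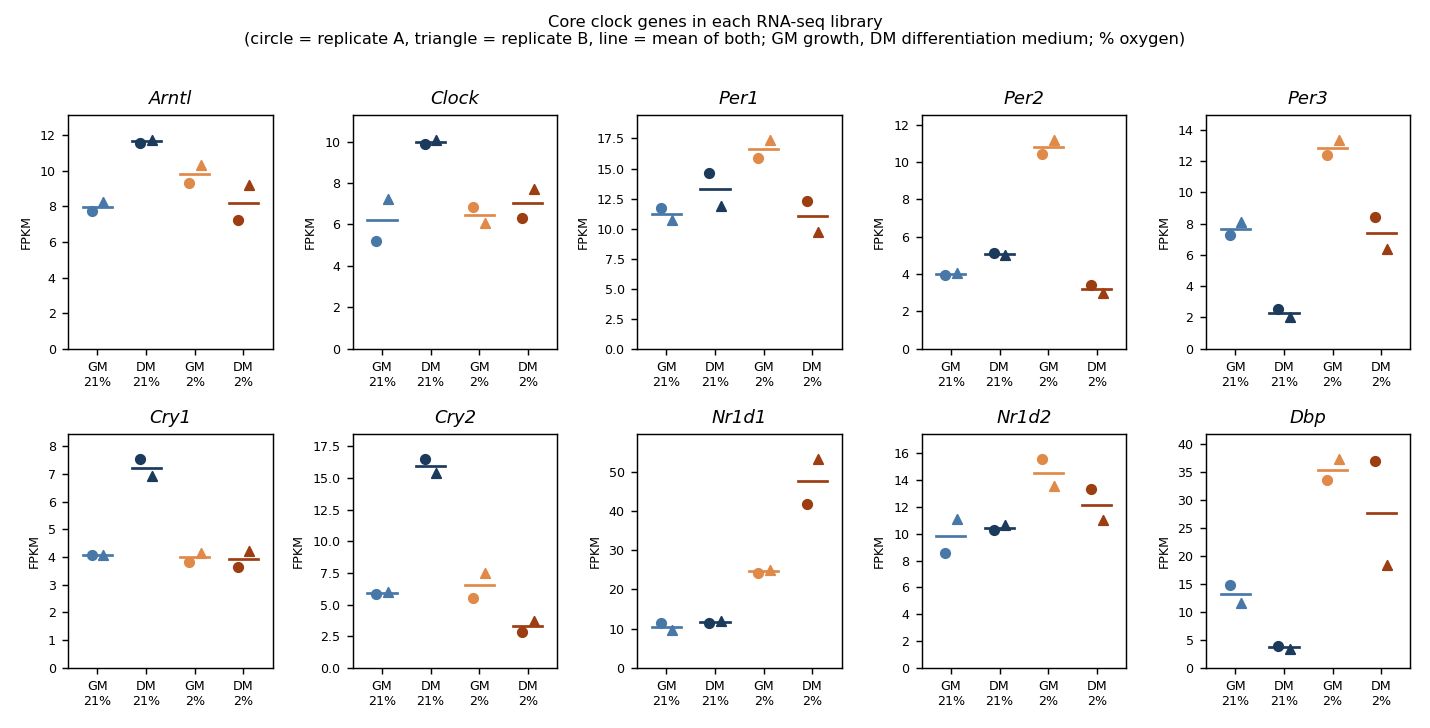
FPKM of each clock gene (vertical axis, linear from 0) in the 8 libraries, by group (growth or differentiation medium at 21% or 2% oxygen); circles are replicate A, triangles replicate B and lines the mean of both. Arntl, Clock, Cry1 and Cry2 are highest in normoxic differentiation medium, Per2 and Per3 in hypoxic growth medium and Nr1d1 in hypoxic differentiation medium, while the 2 Dbp libraries of that last group lie at 37.0 and 18.3 FPKM.

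Ranked by mean FPKM, the order of the genes changed between groups. In normoxic growth medium Dbp (13.2 ± 2.30, SD, n = 2), Per1 (11.2 ± 0.702), Nr1d1 (10.5 ± 1.28) and Nr1d2 (9.81 ± 1.78) led, each overlapping the next, and Cry1 and Per2 were last at 4.08 ± 0.00863 and 4.00 ± 0.0572. In normoxic differentiation medium Cry2 led at 16.0 ± 0.772, and Dbp (3.65 ± 0.288) and Per3 (2.27 ± 0.346) were last. In hypoxic growth medium the order began with Dbp (35.5 ± 2.64), Nr1d1 (24.6 ± 0.479) and Per1 (16.6 ± 1.06), with no overlap between these, and ended with Cry1 (3.99 ± 0.212). In hypoxic differentiation medium Nr1d1 (47.5 ± 8.04) was above Dbp (27.7 ± 13.3), and Cry1, Cry2 and Per2, at 3.93 ± 0.429, 3.28 ± 0.632 and 3.21 ± 0.302, were last, each overlapping the next.

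Differentiation medium in normoxia raised both activators and both cryptochromes and lowered Per3 and Dbp. Of the 10 genes, 5 were called higher, against 25.5% of all tested genes, and 2 lower, against 41.0%. The median change of the 10 was 0.25. Cry2 rose 2.69-fold (1.29 ± 0.16, adjusted p 0.000423) and Cry1 1.77-fold (0.70 ± 0.11, adjusted p 0.00127). Clock rose 1.61-fold (0.62 ± 0.16, adjusted p 0.0129), Arntl 1.46-fold (0.49 ± 0.13, adjusted p 0.0121) and Per2 1.27-fold (0.28 ± 0.10, adjusted p 0.0438). Dbp was 3.61-fold lower (-1.60 ± 0.30, adjusted p 0.00299) and Per3 3.38-fold lower (-1.41 ± 0.15, adjusted p 0.000219). Per1, Nr1d1 and Nr1d2 did not pass the threshold, with 95% confidence intervals of -0.13 to 0.57, -0.17 to 0.46 and -0.26 to 0.45, but after median-of-ratios scaling Per1 and Nr1d1 were called higher (adjusted p 0.0431 and 0.0144). In these bulk samples fewer cells with a transcript and less transcript per cell cannot be told apart. Beside these changes the 6 proliferation genes (Mki67, Ccnb1, Cdk1, Top2a, Ccna2 and Plk1) summed to 187.1 and 205.6 FPKM in normoxic growth medium and 34.6 and 35.1 in differentiation medium, and their part in the clock gene changes was not tested. Without growth medium replicate A, differentiation replicate A or differentiation replicate B, 4 of the 7 calls stood in each case and Arntl, Clock and Per2 were lost (adjusted p 0.0587 to 0.166). Per2 was also lost in 3 further cases, without growth medium replicate B of normoxia and without either hypoxic growth medium library (adjusted p 0.0771 to 0.0956).

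In hypoxia the same change of medium gave another picture, with lower Period genes and Cry2 and higher Nr1d1. Here 1 of the 10 genes was called higher, against 23.3% of all tested genes, and 4 lower, against 17.6%. The median change of the 10 was -0.34. Per2 was 3.37-fold lower (-1.49 ± 0.10, adjusted p 0.000274), Cry2 1.98-fold lower (-0.81 ± 0.16, adjusted p 0.00843), Per3 1.73-fold lower (-0.73 ± 0.15, adjusted p 0.00991) and Per1 1.51-fold lower (-0.56 ± 0.15, adjusted p 0.0232). Nr1d1 rose 1.93-fold (0.91 ± 0.13, adjusted p 0.00278). Arntl (-0.24 ± 0.13, adjusted p 0.174), Clock (0.10 ± 0.16, adjusted p 0.649), Cry1 (-0.02 ± 0.11, adjusted p 0.918) and Nr1d2 (-0.25 ± 0.15, adjusted p 0.229) did not pass the threshold; after upper-quartile scaling Arntl did (-0.36, adjusted p 0.0404) and the sign of Clock turned (-0.0085). With only the 4 hypoxic libraries fitted, or without growth medium replicate B, 2 calls stood, those of Per2 and Nr1d1, while Per1, Per3 and Cry2 had an adjusted p of 0.0539 to 0.130, and Per1 was lost without growth medium replicate A (0.0759) or differentiation replicate B (0.0590). Without the latter library Arntl was called lower (-0.39, adjusted p 0.0222).

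The Dbp value in hypoxic differentiation medium depended on the library. It did not pass the threshold for the change of medium in hypoxia (-0.43 ± 0.30, adjusted p 0.295), it was called lower without replicate A (-0.92, adjusted p 0.00501), and its direction turned without replicate B (0.06, adjusted p 0.775). These replicates also differed in the 6 proliferation genes, which summed to 25.9 FPKM in A and 143.3 in B, each of the 6 being higher in B. The 3 hypoxia genes Vegfa, Slc2a1 and Car9 summed to 1914 FPKM in A and 1471 in B. Whether either difference has a part in the Dbp value was not tested.

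Hypoxia in growth medium raised the 3 Period genes, both REV-ERB genes and Dbp, while the activators and cryptochromes had no call. Of the 10 genes, 6 were called higher, against 13.5% of all tested genes, and 0 lower, against 28.0%. The median change of the 10 was 0.53. Per2 rose 2.70-fold (1.24 ± 0.10, adjusted p 0.000254), Dbp 2.69-fold (1.37 ± 0.30, adjusted p 0.0111) and Nr1d1 2.35-fold (1.16 ± 0.13, adjusted p 0.000890). Per3 rose 1.67-fold (0.68 ± 0.15, adjusted p 0.0121), Nr1d2 1.49-fold (0.53 ± 0.15, adjusted p 0.0278) and Per1 1.48-fold (0.53 ± 0.15, adjusted p 0.0266). The 95% confidence intervals of the other genes were -0.04 to 0.56 for Arntl, -0.32 to 0.45 for Clock, -0.28 to 0.23 for Cry1 and -0.27 to 0.49 for Cry2. After median-of-ratios or upper-quartile scaling Arntl was called higher (adjusted p 0.0285 and 0.0223) and the sign of Cry1 turned (0.0819 and 0.116). Per2 and Nr1d1 stayed called with each library left out, but 2 of the 6 calls stood without hypoxic replicate A and 2 without hypoxic replicate B (adjusted p 0.0513 to 0.157 for Per1, Per3, Nr1d2 and Dbp), and 3 stood without normoxic replicate A, where Per1, Per3 and Nr1d2 were lost (0.0700 to 0.128). Further single losses were those of Per1 and Dbp without normoxic replicate B (0.110 and 0.0646) and of Nr1d2 without either normoxic differentiation library (0.0627 and 0.0638), and Arntl was gained without either hypoxic differentiation library (0.0359 and 0.0355). The summed proliferation genes were lower beside these rises, at 108.3 and 96.1 FPKM in hypoxia, and their part was not tested.

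Oxygen separated the clock genes more widely in differentiation medium than in growth medium, and this held for all tested genes too. The median absolute log2 change was 0.64 for the 10 genes and 0.60 for all tested genes. In growth medium these medians were 0.53 and 0.33. With differentiation medium 3 of the 10 genes were called higher in hypoxia, against 37.5% of all tested genes, and 5 lower, against 27.7%. The median change of the 10 was -0.35. Dbp was 7.58-fold higher in hypoxia (2.54 ± 0.30, adjusted p 0.000345), Nr1d1 4.08-fold higher (1.93 ± 0.13, adjusted p 3.06e-05) and Per3 3.26-fold higher (1.36 ± 0.15, adjusted p 0.000267). Cry2 was 4.86-fold lower (-1.99 ± 0.16, adjusted p 5.80e-05), Cry1 1.84-fold lower (-0.74 ± 0.11, adjusted p 0.000971) and Per2 1.58-fold lower (-0.53 ± 0.10, adjusted p 0.00322). Arntl and Clock were each 1.42-fold lower (-0.47 ± 0.13, adjusted p 0.0150, and -0.46 ± 0.16, adjusted p 0.0418). The intervals of Per1 (-0.60 to 0.10) and Nr1d2 (-0.16 to 0.55) included 0. The calls of the 2 activators were the ones lost under some alternatives: Arntl was lost in a fit of the 4 differentiation medium libraries alone (adjusted p 0.0538), and Clock with no filter (0.0628) and with array quality weights (0.0787). With a library left out Arntl was lost without either normoxic library (adjusted p 0.0725 and 0.0806), and Clock without either normoxic library (0.137 and 0.155), either hypoxic growth medium library (0.0665 and 0.0670) or hypoxic replicate A (0.140), the last of which brought Per1 in as lower (-0.40, adjusted p 0.0429). In this medium the myotube markers differed between the oxygen levels by the sums given above, and their part in these changes was not tested.

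**Figure D2:**
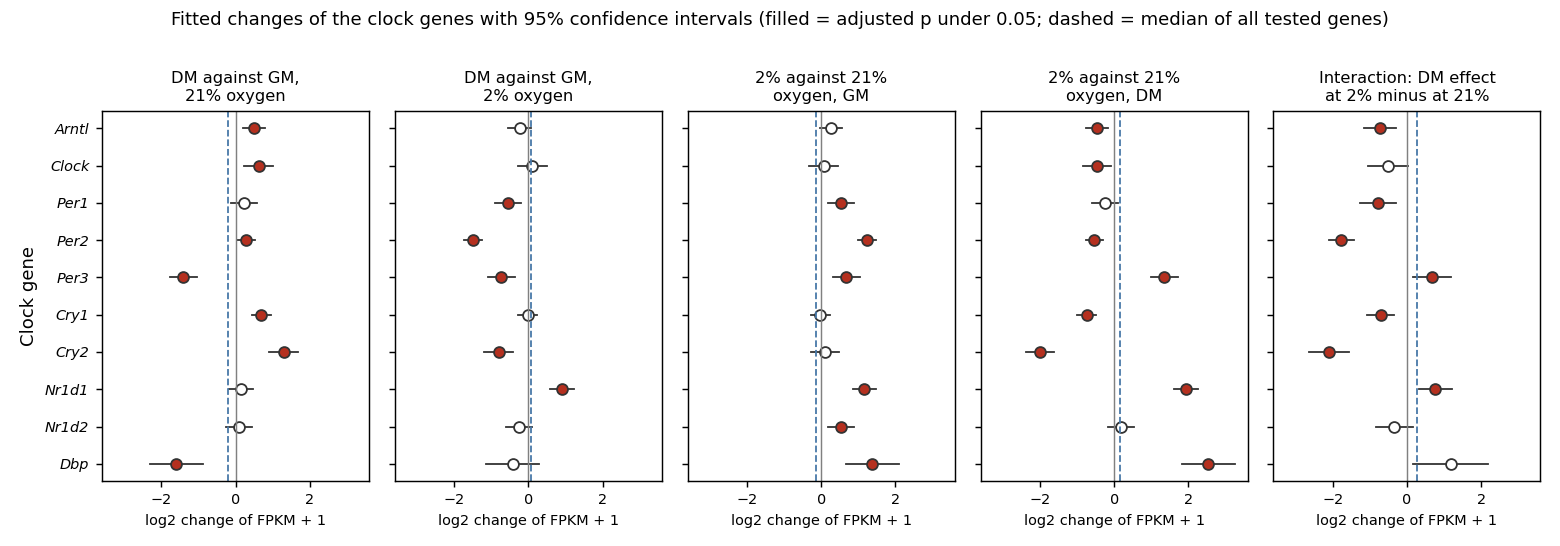
Fitted change of each clock gene on the log2(FPKM + 1) scale (horizontal axis) with its 95% confidence interval in the 5 contrasts; filled points passed the threshold and the dashed line is the median of all tested genes. Cry2 lies at 1.29 for differentiation medium in normoxia and at -0.81 in hypoxia, and Dbp at -1.60 and -0.43.

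The interaction is the change with differentiation medium in hypoxia minus that in normoxia. It was called positive for 2 of the 10 genes, against 35.4% of all tested genes, and negative for 5, against 18.7%. Cry2 (-2.10 ± 0.22, adjusted p 0.000419) rose with differentiation medium in normoxia and fell in hypoxia, and Per2 (-1.77 ± 0.14, adjusted p 0.000129) also had opposite calls. The normoxic call of Per2 was lost with no filter (adjusted p 0.0595). Per1 (-0.78 ± 0.21, adjusted p 0.0180), Arntl (-0.73 ± 0.18, adjusted p 0.0128) and Cry1 (-0.71 ± 0.15, adjusted p 0.00765) were the other negative calls. Nr1d1 (0.77 ± 0.19, adjusted p 0.0132) and Per3 (0.68 ± 0.21, adjusted p 0.0331) were positive, the latter through a smaller fall in hypoxia. Dbp (1.18 ± 0.42, adjusted p 0.0524), Clock (-0.52 ± 0.23, adjusted p 0.0959) and Nr1d2 (-0.34 ± 0.21, adjusted p 0.211) did not pass. Under median-of-ratios and upper-quartile scaling alike 1 gene was positive and 6 were negative, as Per3 was lost (adjusted p 0.205 and 0.143) and Clock was gained (0.0171 and 0.0366). Of all tested genes 23.8% were then positive and 26.6% negative with the former scaling, and 27.8% and 23.4% with the latter. Without normoxic differentiation replicate A 3 calls stood (Per2, Cry1 and Cry2) and without hypoxic growth medium replicate B 4 stood (those and Nr1d1). Per3 was lost without any 1 of the 6 libraries of normoxic growth, normoxic differentiation and hypoxic growth medium (0.0541 to 0.123). Arntl was also lost without normoxic differentiation replicate B (0.0551) and Per1 without normoxic growth medium replicate B (0.0572), Clock was gained without that last library (0.0284) or hypoxic differentiation replicate B (0.0468), and Dbp was gained without either hypoxic differentiation library (0.69 and 1.66, adjusted p 0.0270 and 0.000740).

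Nr1d1, Dbp, Per3 and Cry2 each overlap a neighbour in the RefSeq gene table that also has a row in the deposited table, and whether counting used strand is not stated. Nr1d1 overlaps Thra, a thyroid hormone receptor gene, which was at 59.0 and 54.9 FPKM in normoxic growth medium, 31.1 and 30.0 in normoxic differentiation cultures, 64.5 and 67.8 in hypoxic growth medium and 34.7 and 23.8 in hypoxic differentiation medium. Thra was lower in both differentiation media, whereas Nr1d1 was higher in both hypoxic groups. Dbp overlaps Sphk2, a sphingosine kinase gene, which was at 3.89 to 9.97 FPKM over the 8 libraries and highest in the 2 where Dbp was lowest. Per3 overlaps Uts2, at 0 in 7 libraries and 0.146 FPKM in the other, and Cry2 overlaps D930015M05Rik, at 0 in all 8. Reads shared by such pairs cannot be told apart here.

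Beyond the 10 genes, 21 further clock genes were followed, and 17 of them passed the filter on low values. In normoxia differentiation medium raised 6 and lowered 9 of the 17, against 25.5% and 41.0% of all tested genes, or 8 and 4 after median-of-ratios scaling, against 34.7% and 30.6%. In hypoxia it raised 3 and lowered 2, against 23.3% and 17.6%, or 3 and 3 after either scaling. Hypoxia raised 5 and lowered 3 in growth medium, against 13.5% and 28.0%, or 8 and 3 after upper-quartile scaling, against 19.8% and 20.0%. In differentiation medium it raised 10 and lowered 4, against 37.5% and 27.7%. The interaction was positive for 5 and negative for 6, against 35.4% and 18.7%, or 3 and 7 after median-of-ratios scaling, against 23.8% and 26.6%. Without either hypoxic differentiation library the calls for hypoxia in growth medium came to 13, 8 higher and 5 lower, while the shares of all tested genes also rose, to 18.0% and 18.1% higher and 37.0% and 37.4% lower. Without hypoxic growth medium replicate B the calls for differentiation medium in hypoxia came to 3, and the shares of all tested genes fell to 11.4% and 8.77%.

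Of the further E-box repressors, Ciart and Bhlhe40 had a largest fitted change, for hypoxia in growth medium, above that of any Period or cryptochrome gene. Bhlhe41 did not. In other contrasts the order differed. For hypoxia in differentiation medium Ciart (1.08) and Bhlhe40 (0.81) changed less than Cry2 (-1.99) and Per3 (1.36). Ciart, which encodes an inhibitor of the Arntl and Clock heterodimer, was at 1.15 and 0.604 FPKM in normoxic growth medium, 14.6 and 13.2 in normoxic differentiation cultures, 30.0 and 26.8 in hypoxic growth medium, and 28.3 and 32.9 in hypoxic differentiation medium. It rose 32.4-fold with hypoxia in growth medium (3.98 ± 0.16, adjusted p 2.51e-05) and 15.9-fold with differentiation medium in normoxia (3.00 ± 0.16, adjusted p 1.14e-05). Both folds divide by a low mean of 0.876 FPKM in normoxic growth medium, so their size is imprecise. Bhlhe40, a repressor that competes for E-boxes and is a known target of hypoxia-inducible factors, was at 19.1 and 17.7, 68.8 and 60.1, 100.2 and 100.6, and 120.5 and 106.9 FPKM in the same order, a 5.46-fold rise with hypoxia in growth medium (2.39 ± 0.10, adjusted p 2.56e-05). Its relative Bhlhe41 was at 13.3 and 12.5, 9.29 and 9.38, 17.2 and 17.5, and 34.2 and 24.9 FPKM, and was called higher in hypoxia in differentiation medium (1.55 ± 0.14, adjusted p 0.000116) but not in growth medium (0.40 ± 0.14, adjusted p 0.0637). The levels of Ciart and Bhlhe40 in hypoxic growth and differentiation medium did not differ past the threshold (0.10 ± 0.16, adjusted p 0.656, and 0.18 ± 0.10, adjusted p 0.194).

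Rora, which encodes a nuclear receptor that competes with REV-ERB for the same sites, was low in normoxic growth medium and higher in the other 3 groups. It was at 0.244 and 0.395 FPKM in normoxic growth medium, 1.46 and 1.61 in normoxic differentiation cultures, 4.21 and 3.72 in hypoxic growth medium, and 4.58 and 3.83 in hypoxic differentiation medium, and rose with hypoxia in growth medium (1.91 ± 0.12, adjusted p 0.000112). The change of a gene this low is understated on the scale used. Arntl2, a paralog of Arntl, was at 0.859 and 0.580 FPKM in normoxic differentiation medium and between 1.33 and 2.84 in the other 6 libraries, and was called lower with differentiation medium in normoxia (-1.06 ± 0.21, adjusted p 0.00411).

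The D-box repressor Nfil3 and the activator Dbp bind the same elements. Nfil3 was at 18.0 and 14.3 FPKM in normoxic growth medium, 88.6 and 83.2 in normoxic differentiation cultures, 47.2 and 46.8 in hypoxic growth medium, and 25.6 and 25.9 in hypoxic differentiation medium. It rose 5.33-fold with differentiation medium in normoxia (2.35 ± 0.11, adjusted p 6.28e-06) and fell 1.82-fold in hypoxia (-0.84 ± 0.11, adjusted p 0.00195). The ratio of Nfil3 to Dbp was 23.0 and 24.1 in normoxic differentiation medium and between 0.692 and 1.42 in the other 6 libraries. Tef, another activator of the Dbp family, was at 45.5 and 44.0, 28.1 and 26.8, 53.0 and 54.4, and 51.3 and 39.5 FPKM.

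**Figure D3:**
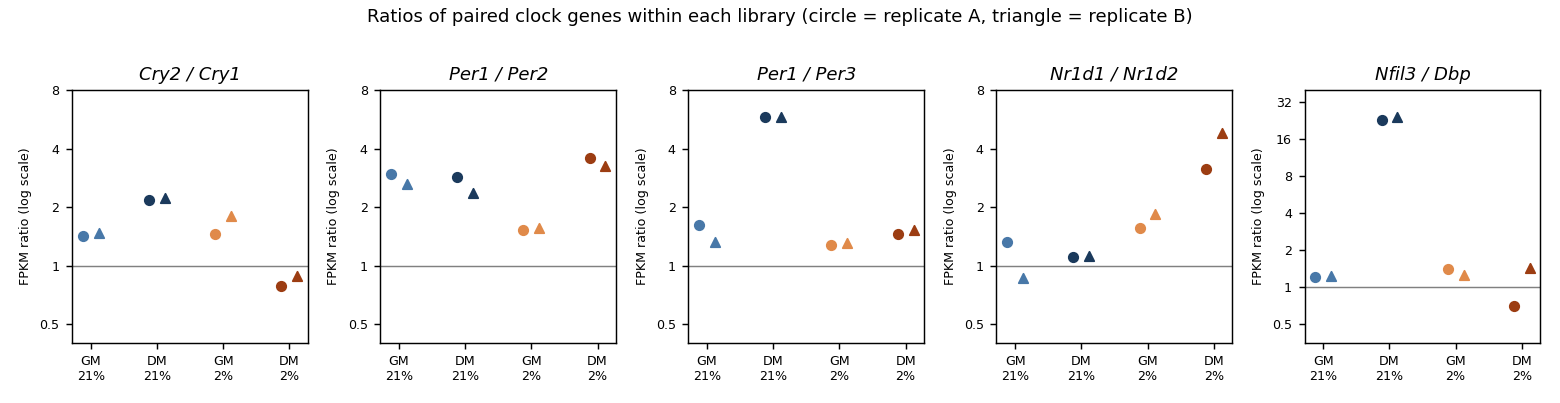
Ratio of FPKM of paired clock genes within each library on a log scale, by group; circles are replicate A, triangles replicate B, and the grey line marks equal levels. The Cry2 to Cry1 ratio falls under 1 only in hypoxic differentiation medium, the Nr1d1 to Nr1d2 ratio is highest there (3.14 and 4.84), and the Nfil3 to Dbp ratio is 23.0 and 24.1 in normoxic differentiation medium; the pairs were chosen after the values were seen.

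Among genes that act on clock proteins or follow the clock, Usp2 and Nampt changed most. Usp2, a deubiquitinase gene under clock control, was at 24.2 and 21.7 FPKM in normoxic differentiation medium and between 0.402 and 1.51 FPKM in the other 6 libraries, an 18.6-fold rise with differentiation medium in normoxia (3.43 ± 0.15, adjusted p 5.35e-06). Nampt, which encodes the rate-limiting enzyme of NAD salvage, was at 8.40 and 9.75, 22.9 and 22.5, 42.1 and 37.9, and 80.1 and 61.7 FPKM in the 4 groups in the order used above. It was called higher in all 4 comparisons of 2 groups, with log2 changes of 1.24 and 0.80 for differentiation medium in normoxia and hypoxia, and of 2.03 and 1.59 for hypoxia in growth and differentiation medium. Of the casein kinase genes for enzymes that phosphorylate PER proteins, Csnk1e was lowest in hypoxic differentiation medium, at 27.1 and 32.0 FPKM against 43.8 to 50.6 in the other 6 libraries, and was 1.67-fold lower there than in its normoxic counterpart (-0.72 ± 0.09, adjusted p 0.000516). Csnk1d was lowest in normoxic differentiation medium, at 37.2 and 38.1 FPKM against 54.7 to 70.6 in the other 6 libraries, a fall from growth medium (-0.72 ± 0.11, adjusted p 0.00102) that had no counterpart past the threshold in hypoxia (0.16 ± 0.11, adjusted p 0.263). Hdac3, the deacetylase of the REV-ERB corepressor, was 1.67-fold lower in normoxic differentiation than growth medium (-0.72 ± 0.08, adjusted p 0.000332).

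**Figure D4:**
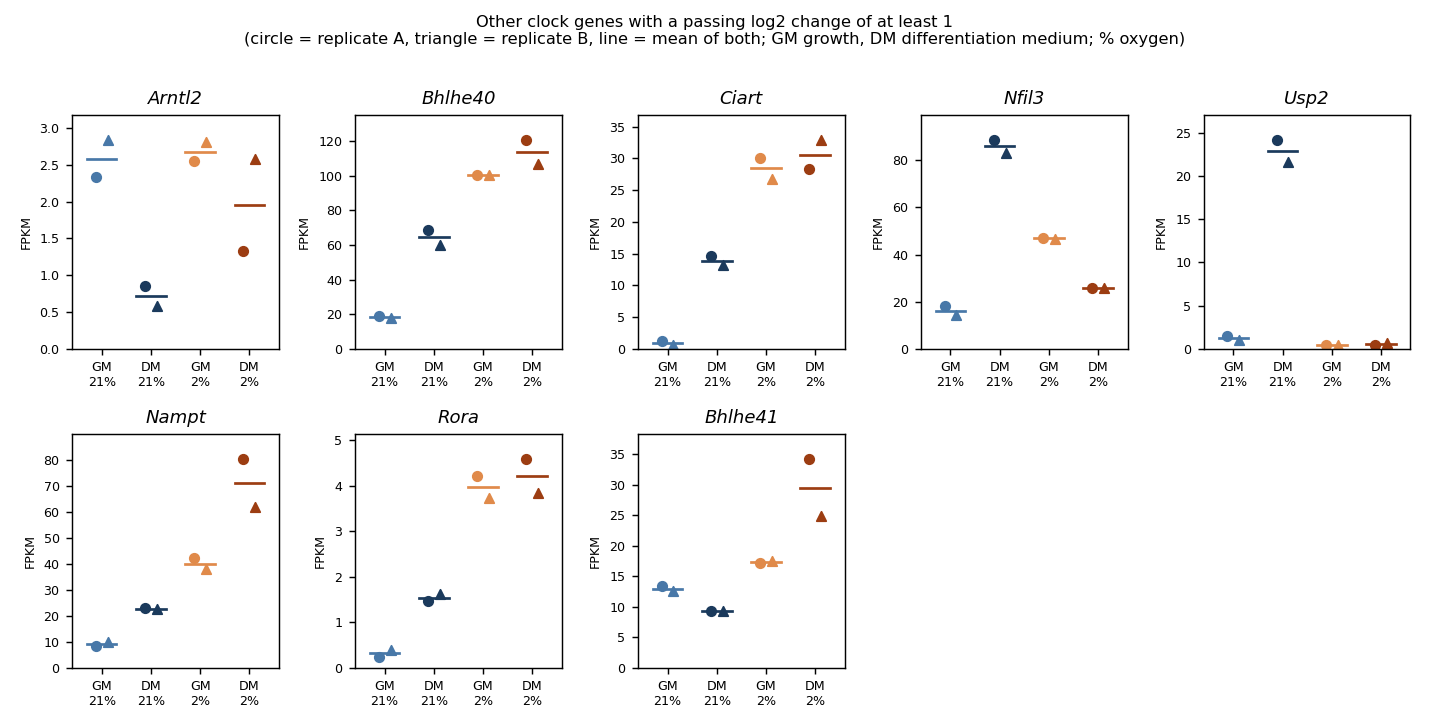
FPKM (vertical axis, linear from 0) of 8 further clock genes with a called log2 change of at least 1, in the 8 libraries by group; circles are replicate A, triangles replicate B and lines the mean of both. Usp2 and Nfil3 are highest in normoxic differentiation medium, and Bhlhe40, Ciart, Nampt and Rora are lowest in normoxic growth medium.

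The genes whose log2(FPKM + 1) followed that of Arntl most closely over the 8 libraries, among 7844 tested genes with at least 10 FPKM in their highest group and outside both lists, were Mafk (Pearson's r 0.965), a small Maf transcription factor gene, Samd4 (0.960), which encodes an RNA-binding protein, and the immediate early gene Fos (0.956). Those most like Dbp were Sfi1 (0.994), which encodes a centrosomal protein, the kinase gene Map3k4 (0.994) and the retinoic acid receptor gene Rara (0.990). Rara was at 26.5 and 19.0 FPKM in normoxic growth medium, 9.70 and 8.08 in normoxic differentiation cultures, 52.9 and 56.4 in hypoxic growth medium, and 51.0 and 39.0 in hypoxic differentiation medium. Since the 8 libraries form 4 groups and the genes were picked as the highest of many, these values are a description.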

How the data were processed

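RNA-seq of the 8 C2C12 libraries was used, with total RNA and strand-specific libraries per the labels' protocols. The 8 chromatin and 8 input samples were not analysed here. The authors deposited 1 gene table whose values are FPKM by their behaviour (not whole numbers, summing to 480018 to 534167 per library), although its name speaks of counts. STAR 2.5.1b, Cufflinks 2.2.1 and mm9 are named in the submitters' processing notes, without roles; the annotation, the use of strand and any scaling between libraries are not given in the sources used here. Columns were matched to samples by title.

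From these values log2(FPKM + 1) was fitted in limma 3.58.1 (R 4.3.3) over 12389 genes with a mean of at least 1 FPKM in a group, with 4 group means, an intensity trend, 4 residual and 2.61 prior degrees of freedom, two-sided tests, and Benjamini-Hochberg adjustment over all genes of each of 5 contrasts. The fit was tested on simulated data with equal noise in every gene and library. The noisier hypoxic differentiation pair was not imitated, so error rates for these libraries do not follow from that test. Precision is limited by 2 libraries per group, and whether the replicates came from separate passages is not stated. Alternatives were a pseudocount of 0.1, no filter, median-of-ratios and upper-quartile scaling, the replicate letter as a block, only the libraries compared, array quality weights and each library left out.

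Genes named are the 10 members, the 21 further clock genes (with values mainly for those with a called log2 change of at least 1), the 3 genes most like Arntl and Dbp, and markers; 1 of the further clock genes is counted but not reported here by name. The members and lists were chosen with earlier results of these data known. Tef, Csnk1d, Csnk1e and Hdac3 and the overlapping neighbours were singled out after their values were seen. Sequences and overlaps come from RefSeq tables of GRCm38.p6.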

Additional observations from a re-analysis of the deposited data

Results flagged for a closer look

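For the clock genes below, the response to differentiation medium differed between 2% and 21% oxygen in the test of that difference by limma. Values are the log2 change in hypoxia minus that in normoxia. Among the core genes it was -2.10 for Cry2, -1.77 for Per2, -0.78 for Per1, -0.73 for Arntl, -0.71 for Cry1, 0.77 for Nr1d1 and 0.68 for Per3, and the Per3 call did not hold under either other scaling (adjusted p 0.205 and 0.143). Over the 14 alternatives run for the interaction, the call was lost in 9 for Per3, in 3 each for Arntl and Per1, and in 1 for Nr1d1. Among the further clock genes it was -3.38 for Usp2, -3.19 for Nfil3, -2.90 for Ciart, -1.58 for Bhlhe40, -0.88 for Rora and -0.84 for Csnk1e, against 1.15 for Bhlhe41, 0.88 for Csnk1d, 0.83 for Hdac3 and 0.32 for Fbxw11. The median over all tested genes was 0.27, near the value of Fbxw11. Positive calls among the further clock genes numbered 5 on the deposited scale, against 35.4% of all tested genes. After median-of-ratios or upper-quartile scaling they numbered 3, against 23.8% and 27.8%. Nfil3 was called higher with differentiation medium in normoxia and lower in hypoxia, and so were Per2 and Cry2. The normoxic call of Per2 was small (0.28) and was lost with no filter (adjusted p 0.0595) and with the replicate block (0.0741). In Ciart and Bhlhe40 the hypoxic growth medium libraries were already above those of normoxic differentiation medium. The proliferation genes differed between the 2 hypoxic differentiation libraries (25.9 and 143.3 FPKM in sum), and their part in these differences was not tested.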

How the results depend on the processing

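Of 740 values of a clock gene under an alternative setting, 645 kept their direction and their side of the threshold, 64 lost a call, 19 gained one and 12 changed sign. No sign change concerned a gene called on the deposited scale with all libraries. Calls of Per3, Cry1, Cry2 and Dbp for differentiation medium in normoxia held under every alternative run, as did those of Per2 and Nr1d1 in hypoxia. The same was true of Per2 and Nr1d1 for hypoxia in growth medium. It also was for Per2, Per3, Cry1, Cry2, Nr1d1 and Dbp for hypoxia in differentiation medium, and for Per2, Cry1 and Cry2 in the interaction. With only the libraries compared, 2 of the 10 genes were called for differentiation medium in hypoxia. The shares of all tested genes called higher and lower fell there from 23.3% and 17.6% to 12.9% and 10.2%. For differentiation medium in normoxia they rose from 25.5% and 41.0% to 27.5% and 44.6%. Hypoxia in growth medium also had a rise, from 13.5% and 28.0% to 15.2% and 31.8%. For hypoxia in differentiation medium they fell from 37.5% and 27.7% to 32.7% and 24.8%. The cause was not tested. Leaving out 1 library gave 4 to 7 calls for differentiation medium in normoxia, 2 to 6 in hypoxia, 2 to 7 for hypoxia in growth medium, 6 to 8 in differentiation medium and 3 to 9 for the interaction, and for the further clock genes 3 to 7 calls for differentiation medium in hypoxia and 7 to 13 for hypoxia in growth medium. The shares of all tested genes called higher and lower also moved, over 20.1% to 28.9% and 31.1% to 46.4%, 11.4% to 34.1% and 8.77% to 21.9%, 7.97% to 18.1% and 16.2% to 37.4%, 28.9% to 43.5% and 22.5% to 31.0%, and 26.5% to 44.7% and 14.8% to 22.5% in the order of the 5 contrasts. Sign changes were those of Clock for differentiation medium in hypoxia after upper-quartile scaling (-0.0085) and of Cry1 for hypoxia in growth medium after median-of-ratios (0.0819) and upper-quartile scaling (0.116); the cause was not tested. With 1 library left out, ranges that crossed 0 were -0.0746 to 0.262 for Nr1d2 with differentiation medium in normoxia, -0.0227 to 0.229 for Clock, -0.107 to 0.0712 for Cry1 and -0.916 to 0.0629 for Dbp with that medium in hypoxia, and -0.142 to 0.263 for Clock, -0.0695 to 0.0173 for Cry1 and -0.0784 to 0.290 for Cry2 with hypoxia in growth medium. Same-lettered replicates did not deviate together (correlations across genes of -0.17 to 0.04 between groups). With the replicate block the counts of called clock genes were 6 and 5 for differentiation medium in normoxia and hypoxia, 6 and 8 for hypoxia in growth and differentiation medium, and 8 for the interaction: Per2 was lost in the first (adjusted p 0.0741) and Dbp gained in the last (0.0412). In that fit 24.5% of all tested genes were called higher and 39.5% lower for differentiation medium in normoxia, and 20.5% and 15.4% in hypoxia. For hypoxia the shares were 12.3% and 25.2% in growth medium and 36.3% and 26.7% in differentiation medium. In the interaction 33.1% were positive and 17.6% negative. A lone library left in a group is taken to vary like the other groups. The unknown depth limits values under about 1 FPKM.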

Other observations

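Of the 21 further clock genes, 4 stayed under a mean of 1 FPKM in every group and were not tested. Npas2, a paralog of Clock, was between 0.0541 and 0.193 FPKM over the 8 libraries. Rorb, a ROR receptor gene, was between 0 and 0.0737 FPKM, and Fbxl21, a ubiquitin ligase subunit gene for cryptochromes, between 0.0286 and 0.218 FPKM. Hlf, a D-box activator of the Dbp family, was between 0.299 and 0.390 FPKM in the 4 hypoxic libraries and between 0.0227 and 0.0924 FPKM in the 4 normoxic ones, without overlap, at levels near those of few fragments.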
